A study of Homo sapiens with 6 samples.

Results

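The genes described here are the replication-dependent histone genes, taken as the protein-coding GENCODE genes whose symbols name H1-1 to H1-6 or carry the cluster names H2AC, H2BC, H3C and H4C. This rule gave 69 genes of the 62252 in the files, namely 6 H1, 17 H2A, 18 H2B, 13 H3 and 15 H4 genes, with 100 listed transcripts. They were measured in poly-A RNA of K562 cells, an erythroleukemia line, in 3 shCtrl and 3 shPCBP1 libraries. Both groups received pLKO.1 lentivirus with 8 µg/mL polybrene overnight and were then held in 3 µg/mL puromycin for 4 days. The shCtrl virus carried a hairpin against luciferase, and the shPCBP1 virus carried a hairpin against PCBP1, a protein that binds C-rich RNA. Each group rests on a single hairpin in a puromycin-selected population. The labels do not say that the libraries of a group came from separate cultures, so p-values measure the spread between these libraries, which may be technical.

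Replication-dependent histone genes supply the core and linker histones that package new DNA, and their mRNAs accumulate in S phase. Most of these mRNAs carry no poly-A tail. Their 3′ end is cut just after a short conserved stem-loop, which the stem-loop binding protein SLBP holds, with the U7 small nuclear RNP placed downstream. Transcripts that read past the stem-loop to an ordinary polyadenylation signal are known for some of these genes, and a library made by poly-A selection favors such tailed forms. The values below therefore describe histone RNA recovered by poly-A selection, and untailed histone mRNA in the cells was not measured.

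A 16-base stem-loop was found in each of the 69 genes, with the same letters in the hg38 genome. The form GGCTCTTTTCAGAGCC was present in 40 genes, and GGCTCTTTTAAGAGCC in 9. The H4 genes differed from the other classes in the stem, since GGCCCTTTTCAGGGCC was present in 10 of 15 H4 genes, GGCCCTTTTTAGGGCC in 4 and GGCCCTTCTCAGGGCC in 1. The stem-loops of the genes that passed the gene test and of the most counted gene of each class, 8 in all, are shown with their flanks, 5′ to 3′ on the strand of the gene (hg38), with the stem-loop in capitals.
H1-2, chr6:26055744-26055759, minus strand: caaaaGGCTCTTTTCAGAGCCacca
H2AC6, chr6:26124669-26124684, plus strand: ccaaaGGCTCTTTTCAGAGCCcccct
H2BC12, chr6:27146366-27146381, minus strand: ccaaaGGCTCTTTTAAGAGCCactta
H2BC15, chr6:27839090-27839105, plus strand: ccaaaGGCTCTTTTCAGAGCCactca
H2BC18, chr1:149811885-149811900, minus strand: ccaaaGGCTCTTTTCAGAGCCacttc
H3C2, chr6:26031597-26031612, minus strand: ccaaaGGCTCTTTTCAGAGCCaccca
H3C10, chr6:27810516-27810531, plus strand: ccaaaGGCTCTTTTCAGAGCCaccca
H4C8, chr6:26285131-26285146, minus strand: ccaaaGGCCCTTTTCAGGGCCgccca

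Since the libraries were poly-A selected, the bases after the stem-loop were searched on the gene's strand for AATAAA, the usual polyadenylation hexamer, and for its variant ATTAAA. The comparison windows came from both strands of the chromosomes that hold these genes. Within 100 bases AATAAA was present in 4 of 69 genes, or 5.8%, against 9.51% of all windows of that length there. ATTAAA was present in 1 gene, or 1.45%, against 6.54% of windows. Within 1000 bases AATAAA was present in 46.4% of the genes and in 58.2% of windows. The windows with a hexamer next to the stem-loop are shown because 3 of these genes are among the most abundant histone genes here. Each begins at the first base after the stem-loop, with the hexamer in capitals.
H1-2: accactgatctcAATAAAagagct
H2AC18 and H2AC19: acccacgttttcaAATAAAagagt
H2BC5: acgcatgttttcAATAAAtgagtt
H2AC4: acctacgacttccATTAAAtgagc
Ranks were taken by mean TPM (relative abundance per length, with the same total in each library). Among the 69 genes H1-2 ranked 2, H2AC19 ranked 3, H2BC5 ranked 9, H2AC18 ranked 30 and H2AC4 ranked 52. H2AC18 and H2AC19 share nearly all their sequence, so their separate ranks rest on how reads were divided between them. H2BC12, which ranked 1, had no AATAAA within 1000 bases. A match is a description of these letters and was not tested as a site of cleavage.

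The promoters were described in the same way. RefSeq promoter windows on GRCh38.p14, from 250 bases before to 50 bases after the start, were at hand for 64 of the 69 genes and were searched on both strands. CCAAT was present in 84.4% of the histone promoters against 34.6% of all 35116, and in every H1, H2A, H2B and H3 promoter searched but in 3 of 13 H4 promoters. TATAAA was present in 67.2% against 11.5%. ATTTGCAT, the octamer bound by POU2F1, was present in 40.6% against 1.77%, in 11 of 16 H2A and 14 of 18 H2B promoters and in no H1 or H4 promoter.

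Estimated counts per library ran from 67066747 to 140522444, and the shPCBP1 libraries were the shallower on average. The histone genes took 0.132% to 0.147% of these counts. PCBP1 (chr2:70087477-70089203), the gene targeted, gave normalized counts of 40566, 38409 and 37799 in the shCtrl libraries and of 6625, 7277 and 7222 in shPCBP1. Its log2 fold change was -2.47 (SE 0.044), so the labels matched the target. All 9 K562 markers examined, such as GATA1 and the globin genes, were present. Of the markers of other cells, KRT19 had a mean of 166 TPM in shCtrl and 157 TPM in shPCBP1, and EPCAM had 37.4 and 32.5 TPM (DESeq2 adjusted p = 0.035). CD3E, CD14 and MS4A1 were each at 0.45 TPM or less in every library.

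Histone RNA in these libraries came mainly from a pair of genes. H2BC12 (chr6:27146361-27146855), an H2B gene, had a mean of 1516 TPM, and H1-2 (chr6:26055740-26056470), a linker histone gene, had 828 TPM. Together they made up 55.1% of the TPM of all histone genes. H2AC19 followed with 309 TPM, H2AC6 with 225 TPM, H2BC11 with 216 TPM and H3C10 with 115 TPM. In all, 7 genes had a mean of at least 100 TPM, 32 had at least 10 TPM and 17 were under 1 TPM, of which 6 were listed at 0 in every library (H2BC1, H2BC10, H3C8, H4C6, H4C13 and H4C16).

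**Figure D1:**
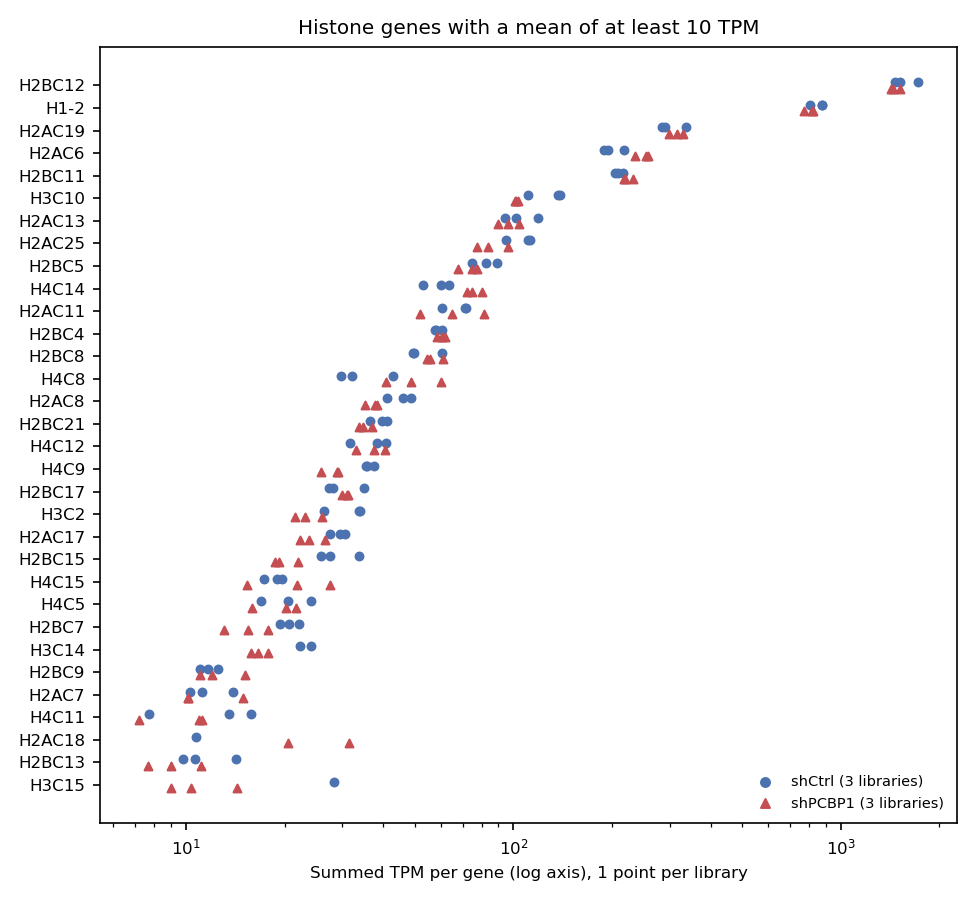
TPM of the 32 histone genes with a mean of at least 10 TPM, on a log axis, with circles for the 3 shCtrl and triangles for the 3 shPCBP1 libraries. H2BC12 and H1-2 stood above the other genes in all 6 libraries. A library at 0 cannot be drawn on this axis.

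Levels of near-identical genes carry a further uncertainty, since Salmon divides reads that match several genes. The share of 31-base words found in no other gene was at least 80% in 49 histone genes and under 50% in 16. It was 29.0% for H2BC12, whose closest relative H2BC12L was listed at 0 in every library. For H2AC18 it was 0, and its normalized counts varied widely within each group, at 0, 231 and 0 in shCtrl and 732, 467 and 0 in shPCBP1. The sum of H2AC18 and its copy H2AC19 was steadier, at 284, 300 and 337 TPM in shCtrl and 330, 336 and 329 TPM in shPCBP1.

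The total histone level was compared first. It was 4027, 4323 and 4602 TPM in shCtrl and 4243, 4145 and 4174 TPM in shPCBP1. The groups overlapped, and the log2 ratio of -0.04 was within the spread between libraries (exact permutation test, two-sided, p = 0.6, where 3 against 3 libraries cannot go below 0.1). In bulk RNA, fewer cells in S phase and less histone RNA per cell cannot be told apart. The H3 genes summed to 182, 226 and 213 TPM in shCtrl and to 170, 173 and 179 TPM in shPCBP1. These sums did not overlap (log2 ratio -0.24, exact p = 0.1). Most of this difference came from a single gene, H3C10, with a mean of 129 TPM in shCtrl and 102 TPM in shPCBP1. The H4 genes summed to 210, 227 and 250 TPM in shCtrl and to 265, 243 and 267 TPM in shPCBP1, with overlap (log2 ratio 0.18, exact p = 0.2). For H1, H2A and H2B the log2 ratios were -0.08, 0.06 and -0.08, with exact p of 0.3, 0.6 and 0.3.

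**Figure D2:**
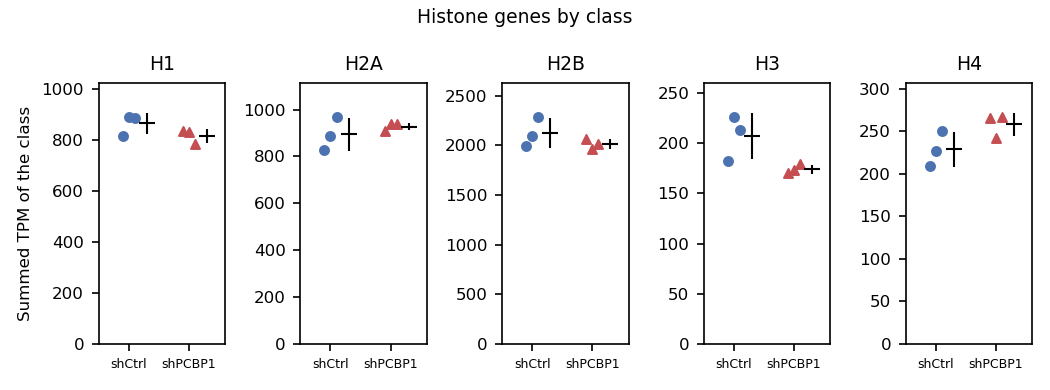
Summed TPM of each histone class in the 3 shCtrl (circles) and 3 shPCBP1 (triangles) libraries, with the mean and SD beside the points. The H3 sum was lower in all 3 shPCBP1 libraries, with a mean of 174 TPM against 207 TPM, and the other classes overlapped. Most of the H3 difference came from H3C10 (mean of 102 TPM in shPCBP1 against 129 TPM in shCtrl).

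By position, the genes of the small cluster at 1q21 summed to 429, 461 and 498 TPM in shCtrl and to 511, 513 and 510 TPM in shPCBP1, without overlap (log2 ratio 0.15, exact p = 0.1). The major cluster at 6p22 differed by -0.06 on the log2 scale (exact p = 0.4). The pair of genes at 1q42 lay the other way from 1q21, at 99.4, 113 and 112 TPM in shCtrl and 78.1, 86.3 and 99.3 TPM in shPCBP1, with the nearest libraries almost equal (log2 ratio -0.30, exact p = 0.1). Of the 9 genes at 1q21 with an adjusted p, 8 had a positive log2 fold change, beside 8612 of 17095 over all genes tested. Only 1 passed the test as higher, beside 17.7% of all genes. The 8 include copies whose sign is uncertain, such as H2AC18 (2.37, SE 3.73) and H3C14 (0.20, SE 1.87). Most of the TPM at 1q21 came from genes with near-identical copies, so the split between copies is uncertain there.

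Gene by gene, 60 histone genes entered the DESeq2 fit and 48 received an adjusted p (Wald test, Benjamini-Hochberg over all genes). At an adjusted p under 0.05, 3 were higher in shPCBP1, beside 17.7% of all genes tested, and 3 were lower, beside 13.5%. The 6 called genes were 12.5% of the 48, while 31.2% of all 17095 genes tested were called in either direction. None passed the study's added thresholds (log2 fold change beyond 1 in size, mean normalized count above 10), which 1.37% of all genes passed. In the same DESeq2 fit 12 of the 60 histone genes had an unadjusted p under 0.05, or 20%, beside 25.5% of all genes, and edgeR placed 1 gene, H4C2, past those thresholds. The median log2 fold change of the 48 genes was 0.10, against 0.00187 over all genes tested. This median rested on single libraries, since it was 0.0453 without shCtrl replicate 1, 0.043 without shCtrl replicate 3 and -0.00937 without shPCBP1 replicate 1, and from transcripts that do not end at the stem-loop it was 0.0143. The groups did not overlap for 18 of the 48, or 37.5%, against 44.2% of all genes. The SE of the log2 fold change had a median of 0.20 over the 48 genes, so small differences in most of them could not be detected.

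**Figure D3:**
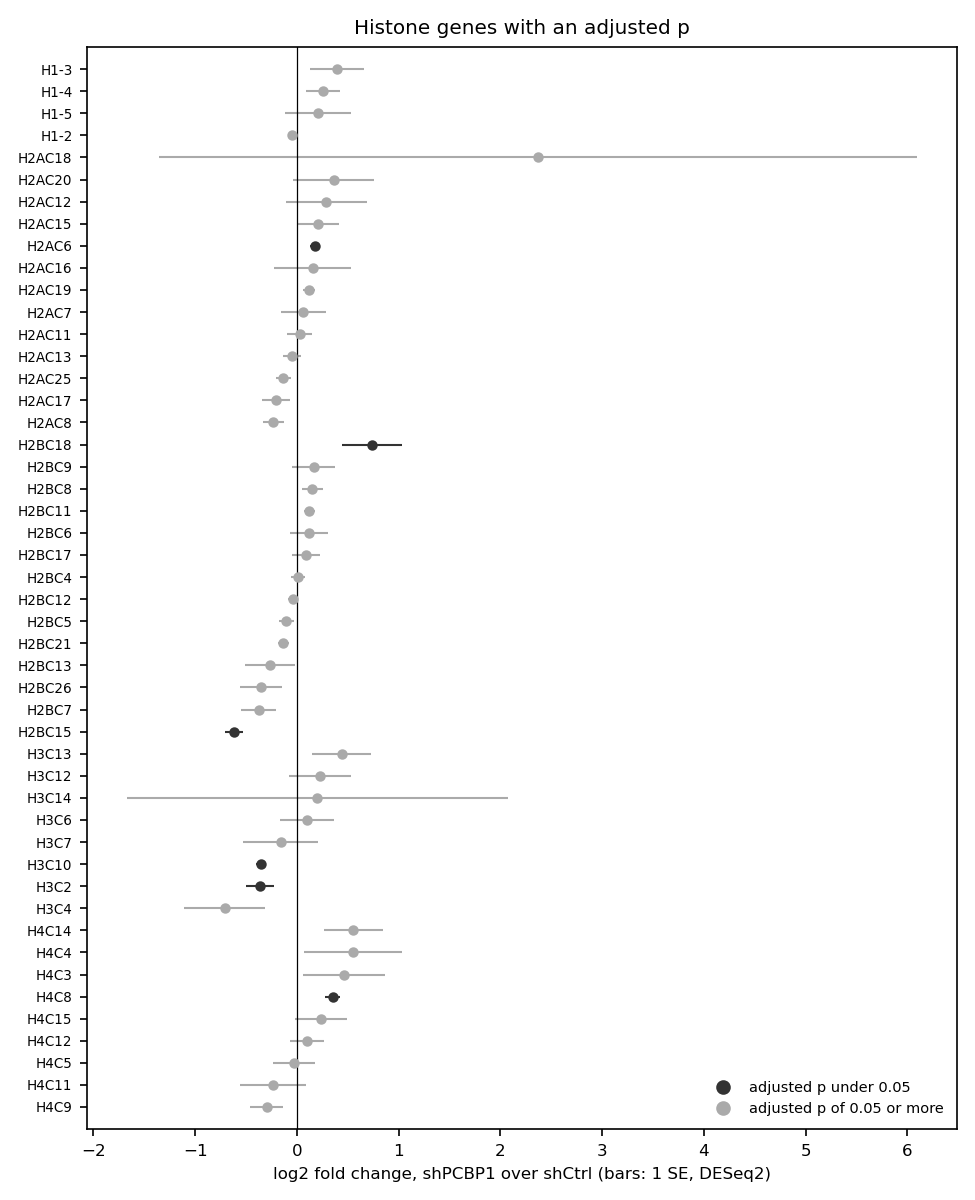
Log2 fold change, shPCBP1 over shCtrl, of the 48 histone genes with an adjusted p, ordered within each class, with bars of 1 SE. The 6 genes in dark lie between -0.62 (H2BC15) and 0.74 (H2BC18), and the wide bars of H2AC18 and H3C14 belong to genes with near-identical copies.

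Among the H2B genes, H2BC15 fell and H2BC18 rose. H2BC15 (chr6:27838545-27855709) gave normalized counts of 2384, 2682 and 2558 in the shCtrl libraries and of 1464, 1616 and 1879 in shPCBP1. All shPCBP1 libraries lay below all shCtrl libraries, with a log2 fold change of -0.62 (SE 0.089 and adjusted p = 8.6e-11). H2BC18 (chr1:149782689-149812373) had counts of 65.2, 92.4 and 126 in shCtrl and of 127, 163 and 185 in shPCBP1. The groups nearly met, and the log2 fold change was 0.74 (SE 0.30, adjusted p = 0.043). This gene had 42.9% of its 31-base words to itself, and its call was lost with edgeR (log2 fold change 0.73, adjusted p = 0.083), with independent filtering off (0.74, adjusted p = 0.070) and with effective lengths as offsets (0.74, adjusted p = 0.069). It was also lost without shCtrl replicate 1, shCtrl replicate 2, shPCBP1 replicate 2 or shPCBP1 replicate 3, with log2 fold changes from 0.53 to 0.72. H2BC12, the most counted H2B gene, had 27823, 27874 and 30952 in shCtrl and 29806, 27548 and 26911 in shPCBP1. These groups overlapped (log2 fold change -0.04, SE 0.048, adjusted p = 0.58). H2BC21 and H2BC11, the next most counted, had log2 fold changes of -0.13 and 0.12, with adjusted p of 0.0501 and 0.071. H2BC21 lay at the threshold and passed with TMM factors (-0.15, adjusted p = 0.024), without a low count filter (0.0498), with a mean count of at least 50 (0.027) and among protein-coding genes only (0.015). It also passed without shCtrl replicate 1 (-0.17, adjusted p = 0.021) or shPCBP1 replicate 3 (-0.16, adjusted p = 0.044).

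Of the H3 genes, which encode the core histone that carries many of the known regulatory tail modifications, H3C10 and H3C2 fell. H3C10 (chr6:27810051-27811300) gave normalized counts of 8009, 8572 and 8922 in the shCtrl libraries and of 6491, 6807 and 6727 in shPCBP1. The groups were well apart, with a log2 fold change of -0.35 (SE 0.050 and adjusted p = 9.7e-11). H3C2 (chr6:26031589-26032099) had 536, 666 and 655 in shCtrl and 483, 444 and 519 in shPCBP1. It was lower in each shPCBP1 library, with a log2 fold change of -0.36 (SE 0.14, adjusted p = 0.030). The H3C2 call was lost with edgeR (adjusted p = 0.056) and with replicate number as a block (adjusted p = 0.091). It was also lost without shCtrl replicate 2 or 3 or without shPCBP1 replicate 1 or 2, with log2 fold changes from -0.36 to -0.30. H3C14, the third most counted H3 gene, shares nearly all its sequence with H3C15, and the pair summed to 24.9 ± 3.08 TPM in shCtrl and 28.0 ± 2.57 TPM in shPCBP1 (SD, n = 3, exact permutation p = 0.3).

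In the H4 class H4C8 rose. H4C8 (chr6:26277609-26285638) gave normalized counts of 2848, 2956 and 3424 in the shCtrl libraries and of 3820.5, 3911 and 4049.5 in shPCBP1. Every shPCBP1 library was higher, with a log2 fold change of 0.35 (SE 0.071 and adjusted p = 8e-06), and the call was lost when effective lengths entered as offsets, with a larger log2 fold change of 0.53 (adjusted p = 0.081). In TPM the groups overlapped, at 29.8, 32.0 and 42.9 in shCtrl and 48.5, 40.8 and 60.0 in shPCBP1. H4C14 and H4C15, near-identical genes at 1q21, had log2 fold changes of 0.56 (SE 0.29) and 0.23 (SE 0.25), with adjusted p of 0.14 and 0.54. H4C14 passed with edgeR (0.54, adjusted p = 0.030), with effective length offsets (0.38, adjusted p = 0.0013), with replicate number as a block (0.52, adjusted p = 2.6e-05) and without shPCBP1 replicate 1 (0.72, adjusted p = 0.034), while without shPCBP1 replicate 2 it had 0.28 (adjusted p = 0.14). H4C15 passed without shPCBP1 replicate 2 (0.43, adjusted p = 0.0012) and had -0.0035 without shPCBP1 replicate 1. Summed, they had 70.1, 79.1 and 83.4 TPM in shCtrl and 99.8, 95.4 and 96.8 TPM in shPCBP1, without overlap (log2 ratio 0.33, exact permutation p = 0.1).

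Of the H2A and H1 genes, H2AC6 rose. H2AC6 (chr6:26124145-26139116) gave normalized counts of 11282, 11241 and 12863 in the shCtrl libraries and of 13794, 13308 and 12984 in shPCBP1. The groups came close without overlap, and the log2 fold change was 0.18 (SE 0.052 and adjusted p = 0.0032). Without shCtrl replicate 1 the value was 0.15 and the call was lost (adjusted p = 0.060). H2AC19 and H2AC25 had log2 fold changes of 0.12 and -0.13, with adjusted p of 0.098 and 0.16. H2AC19 passed without shCtrl replicate 3 (0.19, adjusted p = 0.0010). It shares nearly all its sequence with H2AC18, and the summed TPM of the pair overlapped between groups (log2 ratio 0.11, exact permutation p = 0.4). H2AC25 passed with effective length offsets (-0.28, adjusted p = 0.012), without shCtrl replicate 1 (-0.20, adjusted p = 0.042) and without shPCBP1 replicate 3 (-0.20, adjusted p = 0.033). H1-2 had 31661, 33700 and 33959 in shCtrl and 33397, 32675 and 30094 in shPCBP1. The groups overlapped (log2 fold change -0.05, SE 0.043, adjusted p = 0.46). H1-4 and H1-3, linker histone genes with far fewer counts, had log2 fold changes of 0.25 (SE 0.17) and 0.39 (SE 0.27), with adjusted p of 0.26 and 0.28.

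**Figure D4:**
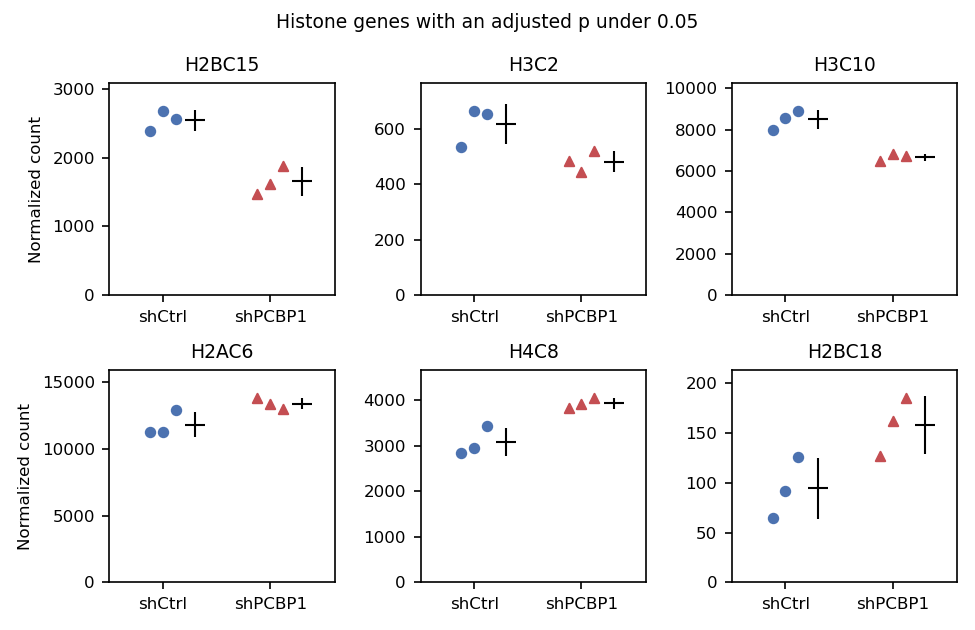
Normalized counts of the 6 histone genes with an adjusted p under 0.05, from the lowest to the highest log2 fold change, in the 3 shCtrl (circles) and 3 shPCBP1 (triangles) libraries, with mean and SD beside the points and each axis from 0. The groups do not overlap in any of the 6, and for H2BC18 the nearest libraries are 126 in shCtrl and 127 in shPCBP1.

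Since a stem-loop end and a tailed end are different RNA forms, the annotated transcripts were compared next. Of the 100 listed, 67 end within 20 bases after the stem-loop, 17 run further past it and 16 lack it. AATAAA was present in the last 50 bases of 2.99% of the stem-loop-ended transcripts, 70.6% of those running past and 25% of those without a stem-loop. Over all transcripts in the files it was present in 28.1%. Stem-loop-ended transcripts held 85.5% ± 0.34 of histone TPM in shCtrl and 85.6% ± 0.50 in shPCBP1 (SD, n = 3, exact permutation p = 0.9). Only 16 genes have both forms listed. H2BC12 and H1-2, with 55.1% of histone TPM, have a single listed transcript each, which ends at the stem-loop. All reads of such genes go to that form by the annotation, whatever end their RNA had. Where a gene has both forms, reads over the coding part match both, and the share is Salmon's division. The 85.5% is therefore no count of RNA ends. Where H1-2 and H2BC12 were left out, the share was 66.9% and 68.5% (exact p = 0.1, without overlap).

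For the 16 genes with both forms listed, the share in stem-loop-ended transcripts was 37.2%, 38.7% and 38.6% in shCtrl and 44.1%, 42.5% and 41.3% in shPCBP1. All shPCBP1 libraries were higher (exact permutation p = 0.1, the smallest possible). The direction of the difference was not the same in each gene. H2AC6 went from 55.4% ± 0.20 to 62.7% ± 2.66, H2BC4 from 19.1% ± 2.83 to 26.8% ± 2.63 and H2BC15 from 45.4% ± 6.32 to 57.4% ± 2.93, while H2AC25 went from 42.6% ± 0.28 to 33.5% ± 1.05 (SD, n = 3). These 4 were picked because their groups did not overlap (exact p = 0.1 each), out of 12 genes with both forms and over 1 TPM in every library. Over 11337 genes with several transcripts and over 1 TPM in every library, the share of the most abundant transcript did not overlap between groups in 22.5%. In the other 8 histone genes the difference ran from -2.65 to 12.5 percentage points, with exact p from 0.2 to 1, as for H2BC11 (3.46, p = 0.2), H2BC5 (-2.65, p = 0.3) and H4C8 (12.5, p = 0.4).

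**Figure D5:**
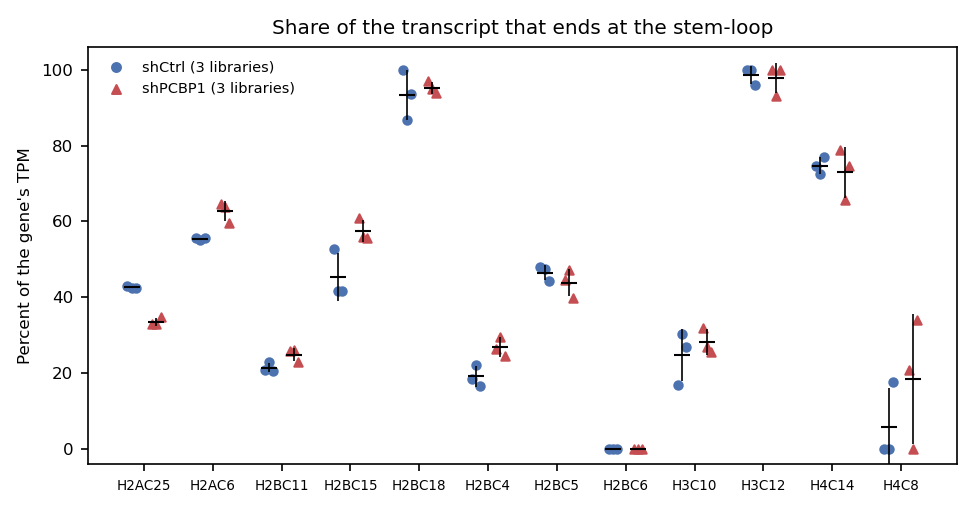
Percent of a gene's TPM in its transcript that ends at the stem-loop, for the 12 genes with both forms and over 1 TPM in every library, in the 3 shCtrl (circles) and 3 shPCBP1 (triangles) libraries with mean and SD. H2AC25 was lower in shPCBP1, at 33.5% against 42.6%, and H2AC6, H2BC4 and H2BC15 were higher.

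Tested as transcripts, 6 histone transcripts were higher, beside 4.98% of all transcripts tested, and 4 were lower, beside 4.29%, among 73 with an adjusted p (DESeq2 Wald test). In either direction 9.27% of all transcripts tested were called. The study's added thresholds were passed by H4C2-201 upward and H2BC15-201 downward, beside 3.07% of all transcripts. The groups did not overlap in 25 of the 73, beside 20.2% of all. The error of dividing reads between forms is not part of this test. Among transcripts that end at the stem-loop, H2AC6-202 rose by 0.56 (SE 0.10), H2BC4-202 by 0.58 (SE 0.21), H4C14-201 by 0.39 (SE 0.11) and H4C2-201 by 1.73 (SE 0.50) on the log2 scale. H2AC25-202 of the same kind had a log2 fold change of -0.56 (SE 0.13). The stem-loop-ended transcript of H4C15 was not among those in the files, and H4C14-201 had 3.01% of its 31-base words to itself. The rise of H4C14-201 therefore cannot be assigned to H4C14 alone. Among the other forms, H3C10-201, which runs 769 bases past the stem-loop, had -0.38 (SE 0.056). H4C8-203 and H4C14-203, both annotated as nonsense-mediated decay forms that run past it, had 0.35 (SE 0.093) and 0.45 (SE 0.16). H2BC15-202 and H2BC15-201, spliced forms of 3 exons without a stem-loop, had -0.64 (SE 0.13) and -1.09 (SE 0.31). With edgeR no histone transcript passed at an adjusted p under 0.05, and of the 79 tested 9 were higher and 7 lower at an unadjusted p under 0.05, beside 5.08% and 5.21% of all transcripts.

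The gene calls were then repeated on each form alone. From stem-loop-ended transcripts, H3C10 had a log2 fold change of -0.10 (adjusted p = 0.86) and H2BC15 -0.13 (adjusted p = 0.63), so neither passed. From the other transcripts alone, H2AC6 had 0.07 (adjusted p = 0.35). H2AC25, which had not passed as a whole gene, had -0.56 from its stem-loop-ended transcript (adjusted p = 4e-05). In the same way H2BC11 had 0.36 (adjusted p = 0.0074) and H4C14 had 0.40 (adjusted p = 0.0079). The H4C14 value may hold reads of H4C15, whose own stem-loop-ended transcript was not in the files. H4C8 had 2.12 (adjusted p = 0.73). Its share of TPM in that form varied widely within each group, at 0%, 0% and 17.6% in shCtrl and 20.9%, 0% and 34.1% in shPCBP1.

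Genes that act on histone RNA and chromatin were described from lists, beside a median of 0.00187 and shares of 17.7% higher and 13.5% lower over all genes. Of 18 genes of histone mRNA 3′ end formation and turnover, 8 were higher and 3 lower, with a median log2 fold change of 0.11. SLBP rose by 0.15 (SE 0.041 and adjusted p = 0.0014), ZNF473, a U7-associated protein, by 0.33, CSTF2, a cleavage stimulation factor, by 0.26, and UPF1, which acts in histone mRNA decay, by 0.24. SYMPK, the scaffold of the cleavage complex, fell by 0.29, NELFE by 0.27 and CPSF3, the endonuclease, by 0.10. Of 9 genes of histone transcription, 6 were higher and 0 lower (7 had an unadjusted p under 0.05, median 0.16). NPAT, the coactivator of the histone clusters, rose by 0.19 (SE 0.052, adjusted p = 0.0013), E2F1 by 0.45, CCNE2 by 0.40 and POU2F1 by 0.20.

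Of 25 S phase genes, 14 were higher and 1 lower, with a median log2 fold change of 0.15. MCM5 and MCM6, subunits of the replicative helicase, rose by 0.32 and 0.26, PCNA, the sliding clamp, rose by 0.31, and LIG1, a DNA ligase, fell by 0.23. Of 14 G2 and M phase genes, 5 were higher and 3 lower (median 0.04), with MKI67 up by 0.46, PLK1 by 0.22 and CENPF by 0.16, while AURKB fell by 0.19, BUB1 by 0.11 and CDK1 by 0.10. Of 17 histone chaperones, 8 were higher and 0 lower (9 had an unadjusted p under 0.05, median 0.11), led by ATRX at 0.25, SSRP1 at 0.21 and HIRA at 0.18. Their part in the histone values was not tested.

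The replication-independent histones, whose mRNAs are polyadenylated through the cell cycle, gave 3 higher and 1 lower of 9 with an adjusted p (median 0.02). H2AX, the variant phosphorylated at DNA breaks and made from both a stem-loop-ended and a tailed mRNA, rose by 0.44 on the log2 scale, MACROH2A1 by 0.12 and H2AZ2 by 0.10, and H1-10 fell by 0.17. Of 15 RNAs without a poly-A tail, such as RN7SL1 and RN7SL2, the RNA of the signal recognition particle, 4 had an adjusted p and none passed at under 0.05 with DESeq2 (0 also had an unadjusted p under 0.05). Their summed level was 638, 795 and 732 TPM in shCtrl and 456, 826 and 486 TPM in shPCBP1. These groups overlapped, and the part of carry-over of untailed RNA in the histone values was not tested.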

How the data were processed

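Poly-A RNA libraries were sequenced as paired ends. Per the labels, the authors quantified reads with Salmon 1.10.2 on hg38, and the annotation release of the index is not given in the sources used here. The deposited estimated counts are not normalized, and the deposited TPM values came from the authors' run with scaling by effective length. Of 252045 transcripts, 251612 were matched to GENCODE v44 by identifier without version, and the rest (0.136% to 0.147% of counts) were left out.

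For each gene the estimated counts of its transcripts were added and rounded, and genes reaching 10 over the 6 libraries were tested with DESeq2 1.42.0 (R 4.3.3; Wald test, median-of-ratios, group as the only term), with edgeR 4.0.16 (quasi-likelihood) as an alternative. Missing adjusted p-values from DESeq2 were left missing. Sums and shares of TPM were compared by exact permutation over libraries. On simulated counts for 28190 genes, 198 of 200 genes given a 3-fold change were found by DESeq2, with 0 false calls (edgeR 200 and 1). A stem-loop-ended transcript ends 0 to 20 bases after the stem-loop.

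The members and lists were chosen with earlier results of these data known. Named were PCBP1, SLBP, NPAT, every member with an adjusted p under 0.05, the 3 most counted of each class and up to 3 called genes per direction and list. Single libraries are given for called members with a mean count of at least 100 and the most counted of each class. Further members, the both-form genes, the called transcripts and H4C2 were chosen after their values were seen, as were the hexamer windows and the 80% limit on 31-base words. Replicate numbers did not pair the libraries.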

Additional observations from a re-analysis of the deposited data

How the results depend on the processing

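The histone genes called numbered 3 higher and 3 lower. From stem-loop-ended transcripts only, 5 were higher, and from the other transcripts only, 1. With a mean count of at least 50, or among protein-coding genes only, 5 were lower. The number past the study's thresholds went from 0 to 1 with edgeR, with independent filtering off, among protein-coding genes only, with effective length offsets and with the replicate block. Leaving out 1 library at a time gave 1 to 4 higher genes, 2 to 7 lower and 0 to 2 past the thresholds. Without shCtrl replicate 1 there were 1 higher and 5 lower, without shPCBP1 replicate 3 there were 2 higher and 7 lower, and without shCtrl replicate 2 there were 2 past the thresholds. The cause was not tested.

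Histone transcripts called numbered 6 higher and 4 lower with DESeq2 and 0 in each direction with edgeR (smallest adjusted p 0.0504), which called 683 of all 125556 transcripts. Leaving out 1 library gave 2 to 9 higher (2 without shCtrl replicate 1 or shPCBP1 replicate 1) and 3 to 7 lower (7 without shCtrl replicate 1).

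The log2 ratio of summed TPM, -0.04, ranged from -0.0912 to 0.0052 with 1 library left out (0.0052 without shCtrl replicate 3) and was 0.0207 without H1-2 and H2BC12, an alternative chosen after seeing the data. The difference in stem-loop-ended share, 0.0755 percentage points, ranged from -0.154 to 0.346, and was -0.0622 without shCtrl replicate 2 and -0.154 without shPCBP1 replicate 1. With 1 library left out, log2 fold changes ranged from -0.0851 to 0.0139 for H2BC12, from -0.38 to 0.71 for H3C14 and from -0.0035 to 0.43 for H4C15, which passed at 0.43 (without shPCBP1 replicate 2, adjusted p = 0.0012).

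Same-numbered libraries had correlations of deviations of 0.0387, 0.016 and -0.0331. With the replicate block, 4 genes were higher and 2 lower, and H4C14 passed (log2 fold change 0.52, adjusted p = 2.6e-05), while H2BC18 (0.055) and H3C2 (0.091) did not. Of the 60 genes in the fit, 48 had an adjusted p, and 59 had one with independent filtering off.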

Other observations

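H4C2 gave normalized counts of 12.5, 18.5 and 17.1 in the shCtrl libraries and of 76.5, 46.3 and 36.0 in shPCBP1, without overlap. Its log2 fold change was 1.74 (SE 0.52), and DESeq2 gave it no adjusted p at its mean count of 34.5. With edgeR its adjusted p was 0.012, and with independent filtering off in DESeq2 it was 0.0068. The gene was chosen after its values were seen.

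ENSG00000282988, a protein-coding gene on the same strand that overlaps H2AC7 and H3C4, gave normalized counts of 1649, 1734 and 1987 in the shCtrl libraries and of 2707, 2304 and 2430.2 in shPCBP1. It rose by 0.47 on the log2 scale (SE 0.086, DESeq2 adjusted p = 7.7e-07). Reads of H2AC7 and H3C4 cannot be fully told apart from its reads.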
